A study of Mus musculus with 80 samples.

Results

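Transcription of 10 ERK feedback genes (Dusp4, Dusp5, Dusp6, Spry1, Spry2, Spry4, Spred1, Spred2, Etv4 and Etv5) was followed in liver, muscle, inguinal white fat (iWAT) and brown fat (BAT) of mice that lacked UCP1, FGF21, both or neither. The genes were taken by name from the deposited count files, which list 32764 genes, as known transcriptional targets of ERK signalling below FGF receptors. They were chosen with earlier results of these data in view, in which UCP1 KO was set against dKO. For this reason that contrast is described below without a test and supports nothing. All 10 genes passed the low-count filter in BAT, iWAT and muscle, and 9 of 10 passed it in liver, where Etv4 did not.

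The libraries came from male mice on a C57BL/6J background that were WT, FGF21 KO, UCP1 KO or dKO. In the dKO both genes were deleted; the labels write this genotype as UCP1/FGF12 double KO, and in BAT its Fgf21 counts were at or near 0, as in FGF21 KO, while Fgf12 had 0 to 3 counts per library in every genotype. Mice were homozygous for the deletions they carried. All mice, WT included, were bred and raised at 30 °C, were moved to room temperature and high-fat diet at 10 to 12 weeks of age and were killed 3 weeks later, after food had been withheld for 2 to 3 h. There were 5 libraries per genotype and tissue, 80 in all, with between 28691377 and 50380696 reads counted on genes per library, and no labels linked the 4 tissues of a mouse. Replicate numbers were given here in the order in which the samples are listed and serve as names alone.

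The labelled genotypes and tissues were checked on the counts. Fgf21 counts per library in BAT ran from 0 to 2 in FGF21 KO and from 0 to 3 in dKO, against 7 to 10 in WT. Ucp1, at 3210 to 7560 CPM in WT BAT, was lower but not absent in UCP1 KO at 530 to 1240 CPM and in dKO at 1050 to 1880 CPM, and counts per gene do not show whether these reads fell inside the deleted part. In iWAT Ucp1 went against the deletion, at 102 to 735 CPM in the libraries labelled UCP1 KO, 4.0 to 29.1 CPM in dKO, 2.64 to 16.7 CPM in WT and 0.133 to 21.4 CPM in FGF21 KO. The groups did not overlap there (UCP1 KO minus WT, log2 fold change 5.65, SE 1.23, adjusted p = 0.0195, edgeR), so Ucp1 counts do not check that label in iWAT. In liver and muscle Ucp1 was low, at most 28.5 CPM, and overlapped between UCP1 KO and WT. The hepatocyte score was 10.42 to 11.17 in liver and at most 3.30 elsewhere, and the skeletal muscle score was 13.43 to 13.85 in muscle and at most 11.00 elsewhere, where a score is the mean log2 of CPM plus 0.1 over a list of marker genes. Marker scores of several cell types moved within or between the groups of BAT and iWAT and are given beside the results they touch.

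ERK is the last kinase of the RAS, RAF and MEK cascade that receptor tyrosine kinases switch on, FGF receptors among them. FGF21, a hormone made by liver and by stressed or activated fat, acts on cells that carry FGFR1 together with the co-receptor beta-Klotho, encoded by Klb, and adipocytes are its best known target. Active ERK raises transcription of its own brakes. The Dusp genes encode phosphatases that remove the activating phosphates from ERK, Dusp4 and Dusp5 in the nucleus and Dusp6 in the cytoplasm. Sprouty proteins (Spry1, Spry2, Spry4) dampen the signal between receptor and RAF, and Spred1 and Spred2 bring the RAS inactivator neurofibromin to the membrane. Etv4 and Etv5 are ETS transcription factors whose own transcription follows FGF signalling. The same genes also respond to other inputs to ERK, so their level does not name a ligand.

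On GRCm38, in the GENCODE annotation, Dusp4 lies at chr8:34807297-34819894, 48.5 Mb from the start of the deleted Ucp1 on the same chromosome, whereas none of the other 9 genes shares a chromosome with Ucp1 or with Fgf21, which is on chromosome 7. Of the 10 genes, 7 had a promoter in the RefSeq table of this build (GRCm38.p6), with 8 starts in all. Dusp4, Etv4 and Spry4 are not among them. The bases before the start are shown for Spred1, Spred2 and Etv5, the 3 genes with an entry that were higher in every UCP1 KO library of BAT than in any WT library. Each run is given 5′ to 3′ on the strand of the gene and ends before any annotated start, and capitals mark a GC box (GGGCGG or CCGCCC).

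Spred1, chr2:117120821-117121070, plus strand: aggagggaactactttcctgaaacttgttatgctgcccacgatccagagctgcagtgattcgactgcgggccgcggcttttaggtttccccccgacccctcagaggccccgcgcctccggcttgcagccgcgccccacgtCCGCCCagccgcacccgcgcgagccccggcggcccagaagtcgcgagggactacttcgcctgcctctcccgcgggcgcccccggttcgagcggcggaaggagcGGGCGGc
Spred2, chr11:19924192-19924374, plus strand: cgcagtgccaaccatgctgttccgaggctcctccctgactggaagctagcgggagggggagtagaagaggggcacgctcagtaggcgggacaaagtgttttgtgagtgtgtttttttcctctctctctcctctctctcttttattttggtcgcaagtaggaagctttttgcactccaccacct
Etv5, chr16:22439720-22439820, minus strand: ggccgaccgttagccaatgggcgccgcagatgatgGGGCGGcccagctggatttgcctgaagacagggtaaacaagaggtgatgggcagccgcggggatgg

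Spred1 holds 2 GC boxes and Etv5 holds 1, while the Spred2 run holds none. The runs of Spred2 and Etv5 are shorter than the 250 bases of a full window, in which Spred2 has 1 GC box, the upstream Etv5 start 3 and the other Etv5 start none. Over 250 bases a GC box is in 32.7% of the 32851 mouse promoters. The ETS core (CCGGAA or TTCCGG), the AP-1 site (TGANTCA), the cAMP response element (TGACGTCA) and the E-box (CACGTG), each searched on both strands, were in 12.0%, 6.75%, 1.55% and 6.02% of all promoters and in none of the 8 member windows. These letters describe the windows alone, and sites farther away were not searched.

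Most of these genes were higher in BAT of UCP1 KO than of WT mice. In UCP1 KO against WT, 6 of 10 were called (adjusted p under 0.01, edgeR, over 15729 genes), all 6 higher: Dusp4, Spry4, Spred1, Spred2, Etv4 and Etv5. Among all genes tested 25.2% were called in this comparison, and the median log2 fold change was 1.00 over the 10 genes against 0.01 over all genes. Markers of other cells moved with genotype in BAT, and the count changed in fits that took them into account. With a macrophage score as covariate 1 of the 10 was called (Spred1), beside 598 of all genes in place of 3965. Without UCP1 KO replicates 4 and 5, which had the lowest adipocyte markers, 3 of the 10 were called (Spred1, Etv4 and Etv5), beside 2662 of all genes. In 4 of the 10, no UCP1 KO library was as low as any WT library, which held for 11.8% of all genes. This comparison shares its 5 UCP1 KO libraries with the contrast that was in view when the genes were chosen, so it is not independent of that choice.

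**Figure D1:**
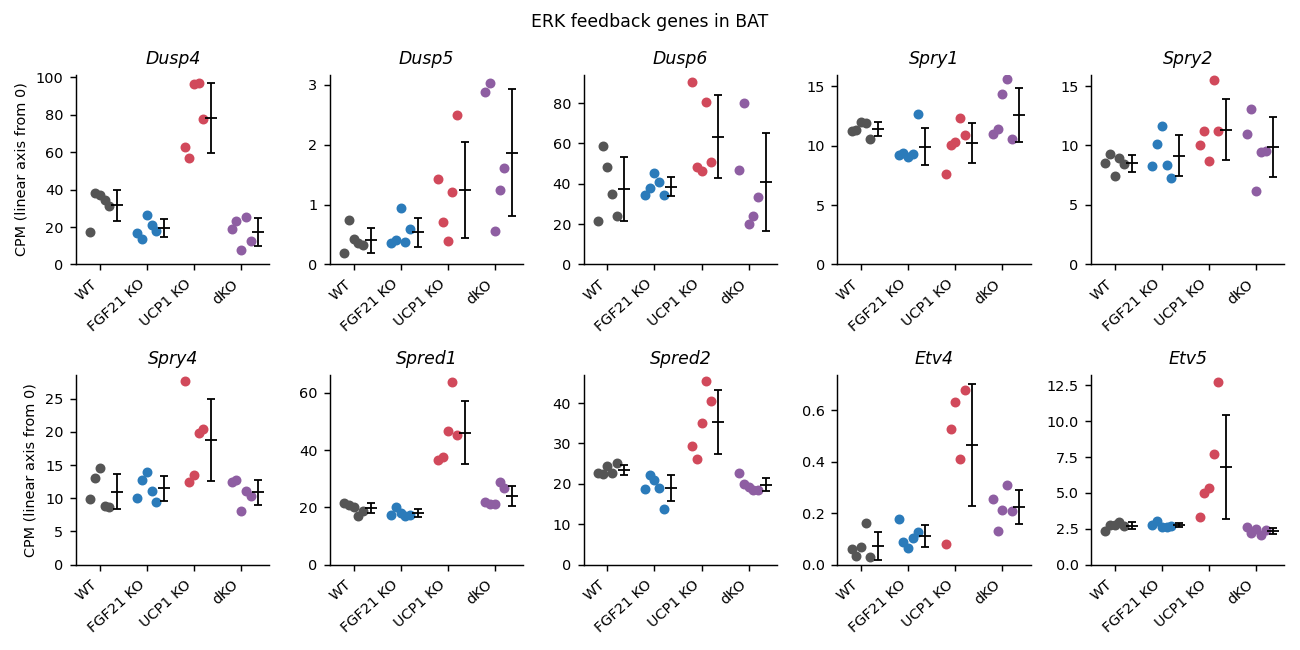
CPM of the 10 ERK feedback genes in BAT (vertical axes, linear from 0) by genotype, 1 point per library, with the mean and SD of 5 libraries as bars. Dusp4, Spred1, Spred2 and Etv5 lie higher in all 5 UCP1 KO libraries than in any WT library, with Dusp4 at 56.8 to 97.1 CPM against 17.5 to 38.3 CPM.

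Dusp4, the phosphatase gene, was at 62.6, 56.8, 96.4, 97.1 and 78.0 CPM in the 5 UCP1 KO libraries of BAT and at 17.5, 38.3, 36.9, 34.3 and 31.4 CPM in WT. The FGF21 KO libraries were at 16.9, 13.6, 26.5, 21.3 and 18.1 CPM and the dKO libraries at 18.7, 23.4, 7.5, 25.5 and 12.5 CPM. The UCP1 KO libraries were all above the WT libraries. UCP1 KO exceeded WT by 1.30 on the log2 scale (SE 0.280, 2.47-fold, adjusted p = 0.00133, edgeR). For Dusp4 dKO minus FGF21 KO was −0.14 (SE 0.280, adjusted p = 0.744, edgeR), and the sign of this small difference turned when 1 library was left out, to 0.05 without dKO replicate 3.

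The 2 other phosphatase genes were not called for UCP1 KO minus WT or for dKO minus FGF21 KO. Dusp5 was low, at 0.387 to 2.49 CPM in UCP1 KO and 0.566 to 3.03 CPM in dKO, against 0.183 to 0.737 CPM in WT and 0.352 to 0.936 CPM in FGF21 KO, with 6 to 125 counts per library. Its groups overlapped, and the difference missed the threshold both for UCP1 KO minus WT, at 1.63 (SE 0.513, adjusted p = 0.0168, edgeR), and for dKO minus FGF21 KO, at 1.80 (SE 0.496, adjusted p = 0.0119, edgeR). DESeq2 called both, with adjusted p of 0.00444 and 0.00181. For dKO minus WT, in which both deletions differ, Dusp5 was called at 2.21 (SE 0.513, adjusted p = 0.00294, edgeR). The other members were not called there, and the share of all genes called in that comparison is not given. Dusp6, more abundant at 46.5 to 90.5 CPM in UCP1 KO and 21.5 to 58.9 CPM in WT, had a difference of 0.76 (SE 0.332, adjusted p = 0.0753, edgeR) and overlapping groups.

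Both Spred genes rose. Spred1 was at 36.6, 37.7, 46.6, 63.9 and 45.3 CPM in UCP1 KO and at 21.5, 20.8, 20.3, 17.0 and 18.9 CPM in WT, an excess of 1.23 (SE 0.130, 2.34-fold, adjusted p = 2.19e-06, edgeR), the smallest p of the 10 genes. Spred2 was at 29.3, 26.2, 35.0, 45.4 and 40.5 CPM against 22.7, 22.5, 24.4, 22.8 and 25.2 CPM, an excess of 0.59 (SE 0.131, 1.50-fold, adjusted p = 0.00185, edgeR). The groups did not overlap for either gene, though for Spred2 the lowest UCP1 KO library (26.2 CPM) stood close to the highest WT library (25.2 CPM). Between dKO and FGF21 KO, Spred1 was 0.41 higher (SE 0.129, adjusted p = 0.0231, edgeR), with 21.1 to 28.8 CPM in dKO against 16.9 to 20.3 CPM and no overlap, but missed the threshold. Spred2 did not separate these genotypes, at 18.6 to 22.6 CPM against 13.7 to 22.1 CPM, a difference of 0.07 (SE 0.132, adjusted p = 0.742, edgeR).

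Of the Sprouty genes, Spry4 alone was called. It was at 27.6, 12.4, 13.5, 19.8 and 20.4 CPM in UCP1 KO and at 9.83, 13.1, 14.6, 8.85 and 8.69 CPM in WT, so that 3 UCP1 KO libraries stood above all WT libraries and 2 lay among them. The excess was 0.77 (SE 0.202, 1.70-fold, adjusted p = 0.00579, edgeR). The call was lost when only the 2 genotypes compared were fitted (0.775, adjusted p = 0.0245, edgeR) and in 6 of the 20 fits that left out 1 library: WT replicates 1, 4 and 5 (adjusted p = 0.0155, 0.0178 and 0.0181) and UCP1 KO replicates 1, 4 and 5 (0.0167, 0.0126 and 0.0134). For Spry2 the difference was 0.41 (SE 0.174, adjusted p = 0.0663, edgeR) and for Spry1 it was −0.15 (SE 0.131, adjusted p = 0.384, edgeR). Spry1 was the one gene of the 10 with a fold change below 0, at 7.59 to 12.3 CPM in UCP1 KO and 10.6 to 12.0 CPM in WT.

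Both ETS factors were called. Etv5 was at 3.35, 5.02, 5.32, 7.74 and 12.7 CPM in UCP1 KO and at 2.37, 2.77, 2.76, 2.99 and 2.72 CPM in WT, an excess of 1.33 (SE 0.238, 2.51-fold, adjusted p = 0.000301, edgeR). All UCP1 KO libraries were above WT, but they spread widely among themselves. In dKO it was at 2.06 to 2.61 CPM against 2.63 to 3.05 CPM in FGF21 KO, and the difference of −0.23 (SE 0.238) was not called (adjusted p = 0.498, edgeR). Etv4 had few reads in BAT, 1 to 5 counts per library in WT and 3 to 31 in UCP1 KO, so its fitted difference of 2.66 (SE 0.496, adjusted p = 0.000409, edgeR) rests on low counts. It was at 0.525, 0.631, 0.409 and 0.676 CPM in 4 UCP1 KO libraries and at 0.0805 CPM in UCP1 KO replicate 1, which lay inside the WT range of 0.029 to 0.163 CPM.

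The effect of losing UCP1 with FGF21 absent was read from dKO minus FGF21 KO. In BAT 0 of the 10 genes were called by edgeR, where 13.5% of all genes were, so the count lies near that background. This comparison shares its 5 dKO libraries with the contrast that was in view when the genes were chosen, and a choice for levels below UCP1 KO favours low dKO values. At an unadjusted p under 0.05, 3 of the 10 passed, as did 40.0% of all genes, and DESeq2 called 2, Dusp5 and Spred1, beside 19.5% of all genes. The median log2 fold change was 0.10 over the 10 genes. A single gene, Spred1, had every dKO library above every FGF21 KO library, as 8.84% of all genes did. The 10 genes showed no call either for FGF21 KO minus WT in BAT, where 0.0% of all genes were called by edgeR (8.55% of them, and 2 of the 10, had an unadjusted p under 0.05) and DESeq2 likewise called none of the 10, beside 0.191% of all genes. In that comparison Dusp4 differed by −0.72 (SE 0.280) and Spred2 by −0.32 (SE 0.132), with adjusted p of 0.467 and 0.502 (edgeR).

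**Figure D2:**
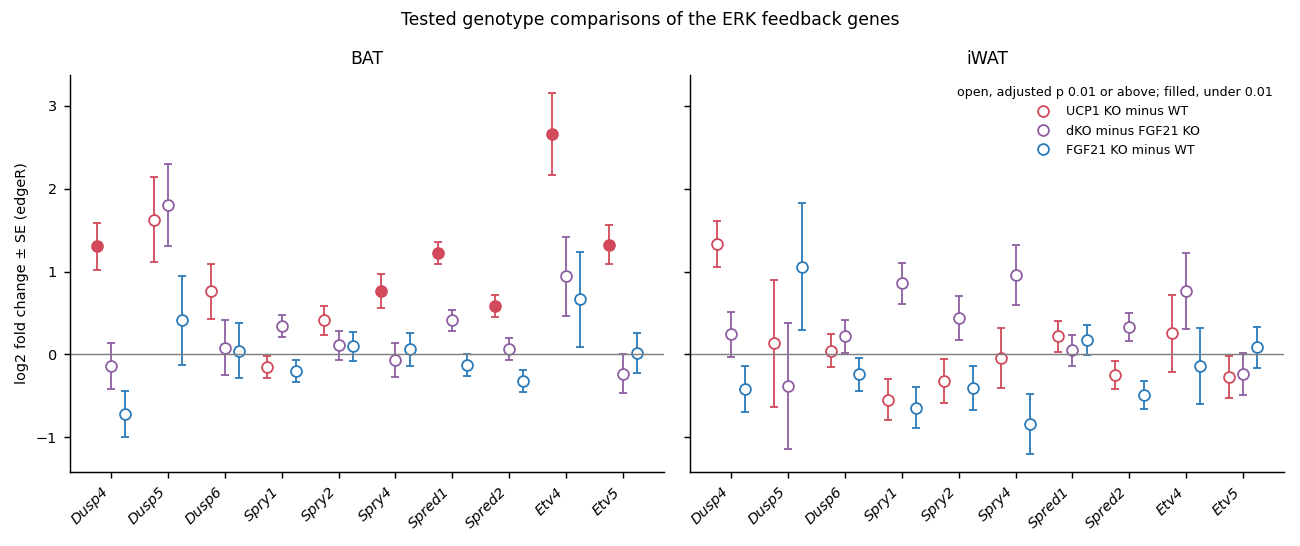
Log2 fold changes (vertical axis) with SE as bars for the 10 genes in BAT and iWAT, for UCP1 KO minus WT, dKO minus FGF21 KO and FGF21 KO minus WT. Filled points, adjusted p under 0.01 in edgeR, occur for UCP1 KO minus WT in BAT at Dusp4, Spry4, Spred1, Spred2, Etv4 and Etv5 and nowhere else in the plot.

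Set directly against dKO, UCP1 KO had a higher level of 8 of the 10 genes in BAT, as a description of the contrast the genes were chosen by. The log2 difference was 2.16 (SE 0.288) for Dusp4, 1.54 (SE 0.238) for Etv5, 1.06 (SE 0.408) for Etv4, 0.94 (SE 0.129) for Spred1, 0.83 (SE 0.132) for Spred2, 0.78 (SE 0.202) for Spry4, 0.63 (SE 0.331) for Dusp6 and 0.20 (SE 0.173) for Spry2. Dusp5 and Spry1 were at −0.59 (SE 0.463) and −0.29 (SE 0.130). The libraries did not overlap for Dusp4, Etv5, Spred1 and Spred2. Just outside was Spry4, whose lowest UCP1 KO library (12.4 CPM) fell under the highest dKO library (12.7 CPM). The shares of all genes that were higher, or that did not overlap, are not given for this contrast. These genes therefore cannot be set against a background here. The effect of losing UCP1 with FGF21 present minus its effect with FGF21 absent was 1.72 (SE 0.709) for Etv4, 1.56 (SE 0.336) for Etv5, 1.44 (SE 0.395) for Dusp4, 0.84 (SE 0.286) for Spry4, 0.81 (SE 0.182) for Spred1, 0.68 (SE 0.468) for Dusp6, 0.52 (SE 0.186) for Spred2 and 0.30 (SE 0.246) for Spry2. It was below 0 for Dusp5, at −0.18 (SE 0.718), and for Spry1, at −0.49 (SE 0.185). These values rest on the same contrast and are given without a test.

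Markers of other cells moved with genotype in BAT, and in such bulk samples more cells of a type cannot be told apart from more RNA per cell. The macrophage score was 3.64 to 5.09 in UCP1 KO, 3.09 to 3.41 in WT, 3.00 to 3.57 in FGF21 KO and 3.13 to 4.26 in dKO. Its 5 markers summed to 67.4 to 179 CPM in UCP1 KO, 49.5 to 63.4 CPM in WT, 45.6 to 66.5 CPM in FGF21 KO and 48.7 to 102 CPM in dKO. Of the 5, 4 were called higher in UCP1 KO minus WT and 1 in dKO minus FGF21 KO, and none was at 0 in any library. With this score as a covariate, an alternative added after seeing the data, 1 of the 10 genes was called in UCP1 KO minus WT (Spred1, 1.23, adjusted p = 0.000896, edgeR) and 598 of all genes in place of 3965. The fold changes were 0.95 for Dusp4, 0.91 for Etv5, 0.65 for Spred2, 0.81 for Spry4 and 2.36 for Etv4, with adjusted p of 0.129, 0.105, 0.0465, 0.103 and 0.0328 (edgeR). WT and UCP1 KO scores did not overlap, so these groups cannot be compared at like scores.

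In the order of the replicates, the UCP1 KO libraries whose levels are given above had macrophage scores of 3.88, 5.09, 3.64, 4.45 and 4.86. The library with the highest score, replicate 2, was the lowest of its group for Dusp4 and Spred2 and also had the highest sum of skeletal muscle markers, while Etv5 was highest in replicate 5, with the next highest score. In dKO the scores were 3.76, 4.26, 3.13, 4.07 and 3.83. Skeletal muscle markers, 10 genes, stood out in 5 BAT libraries with scores above 6, of which 2 were UCP1 KO and 3 dKO. They summed to 75.6 to 10400 CPM in UCP1 KO, 117 to 5570 CPM in dKO, 32.0 to 144 CPM in WT and 34.6 to 529 CPM in FGF21 KO, with 5 of the 10 called higher in UCP1 KO minus WT and none at 0. Without those 5 libraries 7 of the 10 ERK feedback genes and 3588 of all genes were called in UCP1 KO minus WT, against 6 and 3965 with them.

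Adipocyte and hepatocyte markers were uneven in BAT too. The 5 adipocyte markers summed to 4320 to 11300 CPM in UCP1 KO, 9240 to 10300 CPM in WT, 9800 to 10500 CPM in FGF21 KO and 9230 to 12000 CPM in dKO, with 1 of 5 called lower in UCP1 KO minus WT and 1 in dKO minus FGF21 KO, and none at 0. The lowest sums were those of UCP1 KO replicates 5 and 4, at 4316 and 6378 CPM, and these libraries were the highest of their group for Etv5 and Spred2. Without both, an alternative added after seeing the data, 3 of the 10 genes and 2662 of all genes were called in UCP1 KO minus WT. Spred1 was then at 1.03 (adjusted p = 9.24e-06), Etv5 at 0.75 (adjusted p = 0.00105) and Etv4 at 2.50 (adjusted p = 0.00316), while Dusp4 at 1.18, Spred2 at 0.36 and Spry4 at 0.70 missed the threshold (adjusted p = 0.0104, 0.0313 and 0.0346, edgeR). The 6 hepatocyte markers summed to 41.2 to 58.1 CPM in dKO, 13.3 to 41.5 CPM in UCP1 KO, 10.4 to 18.9 CPM in WT and 9.20 to 49.2 CPM in FGF21 KO, with none of the 5 tested called in any comparison and 1 of the 6 at 0 in some library. Their part in the results was not tested.

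**Figure D3:**
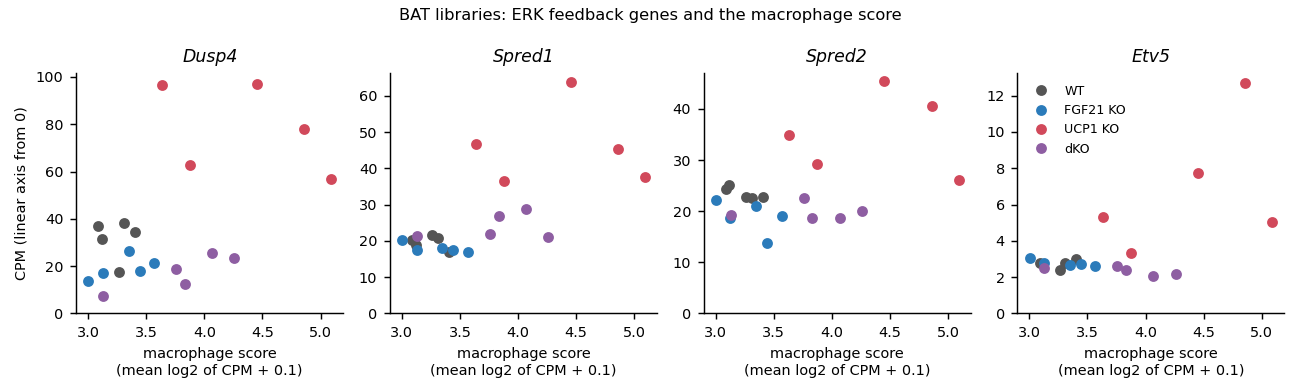
CPM of Dusp4, Spred1, Spred2 and Etv5 (vertical axes, linear from 0) against the macrophage score (horizontal axes, mean log2 of CPM plus 0.1 over 5 markers) in the 20 BAT libraries, coloured by genotype. UCP1 KO scores, 3.64 to 5.09, lie to the right of all WT scores, 3.09 to 3.41, and the dKO scores of 3.13 to 4.26 overlap both.

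The ligand and receptors of the pathway were read beside the feedback genes. Fgf21 in BAT was at 9.47, 24.2, 35.2, 29.0 and 23.9 CPM in UCP1 KO against 0.228 to 0.290 CPM in WT (log2 fold change 6.58, SE 0.361, adjusted p = 1.15e-09, edgeR). Fgfr1, the receptor through which FGF21 acts, was lower, at 50.9 to 66.0 CPM in UCP1 KO and 65.3 to 90.4 CPM in WT (−0.49, SE 0.0932, adjusted p = 0.000542, edgeR), and also lower in dKO than in FGF21 KO (−0.50, SE 0.0933, adjusted p = 0.000797, edgeR). Klb was not called, at 0.23 (SE 0.114, adjusted p = 0.116, edgeR). Fgf21 was thus highest in UCP1 KO, the deletion removing it from FGF21 KO and dKO, and Fgfr1 was lower with loss of UCP1 whether or not FGF21 was present. Fgfr1 lies on chromosome 8 like Ucp1, 57.8 Mb from its start. Whether this position or the mix of cells has a part in its level was not tested.

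Other lists of the pathway were counted in the same fit, beside the 25.2% of all genes called. Of 11 FGF ligands tested in BAT, 4 were called higher in UCP1 KO minus WT and 3 lower; the largest rises were Fgf21, Fgf9 (2.08, SE 0.343) and Fgf18 (1.02, SE 0.285), and the 3 falls were Fgf14 (−3.70, SE 0.418), Fgf16 (−2.62, SE 0.379) and Fgf11 (−0.71, SE 0.135). Fgf11 and Fgf14 encode intracellular proteins that do not act through FGF receptors. Of 10 receptors and adaptors, 0 were higher and 2 lower, Fgfr1 and the adaptor Frs2 (−0.23, SE 0.0648). Of the kinases and regulators of the cascade itself 1 of 19 was higher, the ERK-activated kinase gene Rps6ka1 (1.98, SE 0.236). Of 21 other ERK feedback and target genes 5 were higher and 0 lower, close to the share of all genes called, led by Fosl1 (3.32, SE 0.680), Dusp9 (3.25, SE 0.635) and Myc (1.85, SE 0.345). In the EGF family, another set of ligands and receptors that feed ERK, 0 of 9 were higher and 2 were lower, Btc (−2.64, SE 0.531) and Erbb4 (−1.24, SE 0.313).

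In dKO minus FGF21 KO, where 13.5% of all genes were called, 2 of the 11 FGF ligands were higher and 1 lower, 1 of the 10 receptors and adaptors was lower, 1 of the 19 cascade genes was higher, 3 of the 21 other ERK feedback and target genes were higher and 2 of the 9 EGF family genes were lower. In FGF21 KO minus WT none of the listed genes was called in BAT. The median log2 fold change of the other ERK feedback and target genes was 0.13 for UCP1 KO minus WT and 0.50 for dKO minus FGF21 KO, against 1.00 and 0.10 for the 10 genes.

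In iWAT, Dusp4 had the smallest p of the 10 genes for UCP1 KO minus WT. It was at 35.0, 12.9, 34.1, 25.2 and 57.4 CPM in UCP1 KO, 11.1, 14.9, 13.2, 13.3 and 12.8 CPM in WT, 8.53, 7.98, 10.3, 7.86 and 14.4 CPM in FGF21 KO and 10.5, 8.85, 10.6, 13.7 and 14.4 CPM in dKO. In UCP1 KO, 4 libraries were above all WT libraries, and replicate 2 lay among them. UCP1 KO minus WT was 1.33 (SE 0.280, 2.52-fold), with an adjusted p of 0.0166 (edgeR) that missed the threshold. Over the 20 fits that omit 1 library it ran from 1.04 to 1.54, with an adjusted p of 0.000731 without UCP1 KO replicate 2 and no call in the other 19 fits (adjusted p up to 0.0591, edgeR), and DESeq2 called it with all libraries (adjusted p = 0.00022). As a description of the contrast that guided the choice, UCP1 KO minus dKO was 1.50 (SE 0.282) for Dusp4.

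In UCP1 KO minus WT 0 of 10 genes were called by edgeR, where 0.61% of all genes were. At an unadjusted p under 0.05 there were 2 of the 10 beside 14.7% of all genes, and DESeq2 called 1 beside 3.43%. The median over the 10 was −0.00. Spred1, Spred2 and Etv5, which were called in BAT, had differences of 0.22 (SE 0.184), −0.25 (SE 0.169) and −0.27 (SE 0.252). No call was made for dKO minus FGF21 KO, where 0.0115% of all genes were called, or for FGF21 KO minus WT, where 0.00575% were; 2 and 3 of the 10 had an unadjusted p under 0.05, beside 8.62% and 17.4% of all genes, and DESeq2 called none, beside 0.0115% and 0.242%. Whether the effect of UCP1 loss on these genes differs between BAT and iWAT was not tested.

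**Figure D4:**
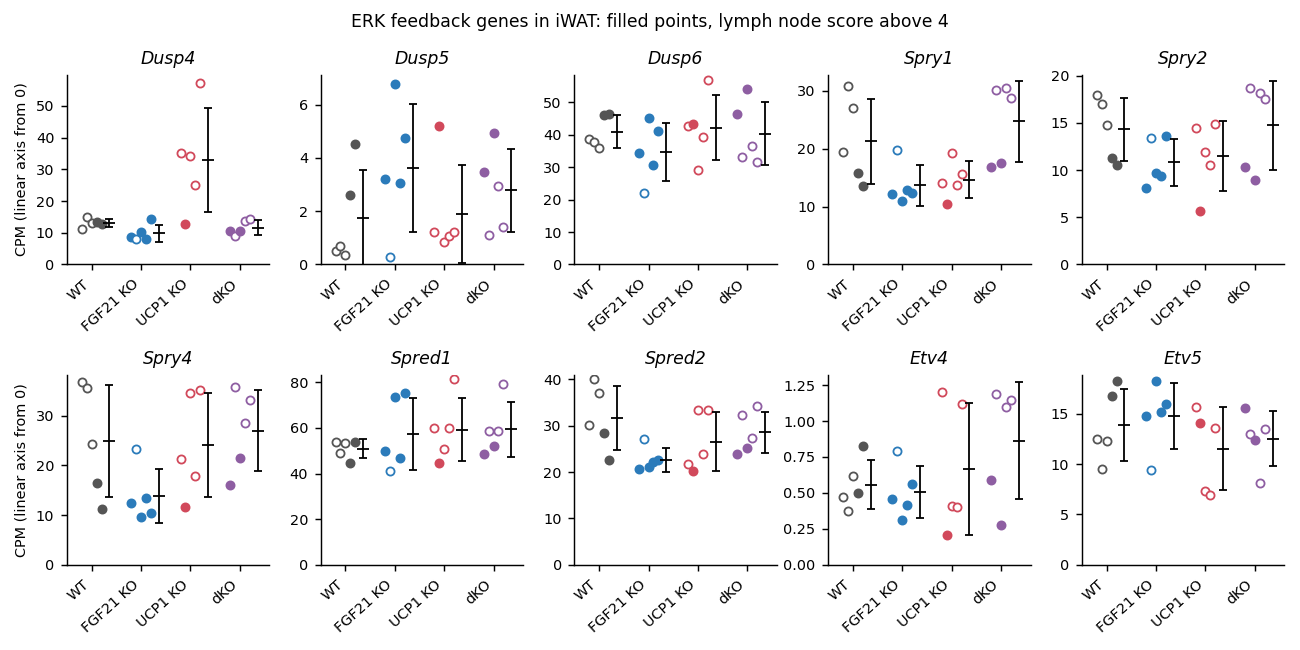
CPM of the 10 genes in iWAT (vertical axes, linear from 0) by genotype, 1 point per library, filled where the lymph node score was above 4, with the mean and SD of 5 libraries as bars (drawn down to 0 at most). Dusp4 stands higher in 4 UCP1 KO libraries than in any WT library, and filled points run higher for Dusp5 and lower for Spry1, Spry2 and Spry4, with overlap in each.

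A lymph node signal ran through the iWAT libraries. The score over 8 lymph node markers was 6.48 to 7.37 in 9 libraries, 4 of FGF21 KO, 2 of WT, 2 of dKO and 1 of UCP1 KO, and −0.51 to 1.77 in the other 11. The markers summed to 10.5 to 1630 CPM in FGF21 KO, 8.70 to 1560 CPM in UCP1 KO, 10.7 to 1110 CPM in WT and 5.56 to 1580 CPM in dKO, with 0 of 8 called in any of the 3 comparisons and none at 0. The levels of 4 of the feedback genes are given for these libraries, without a test and chosen after their values were seen. Dusp5 was at 2.59 to 6.79 CPM in the 9 and 0.292 to 2.96 CPM in the 11. Spry4 was at 9.66 to 21.4 CPM against 17.8 to 36.8 CPM, Spry1 at 10.5 to 17.5 CPM against 13.8 to 30.8 CPM, and Spry2 at 5.63 to 13.6 CPM against 10.5 to 18.7 CPM. Klb, at 21.6 to 60.5 CPM in the 9, was below its 70.2 to 110 CPM in the 11 with no overlap.

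Dusp4 was called once this signal entered the fit. With the covariate 816 of all genes were called in place of 106, and the Dusp4 difference was below the 1.33 (SE 0.280) of the fit without it. With the lymph node score added as covariate UCP1 KO minus WT was 1.23 for Dusp4 (SE 0.284, adjusted p = 0.00925, edgeR), and among the 11 libraries with low scores it was 1.52 (SE 0.276, adjusted p = 0.00804, edgeR). In the covariate fit Spry1 was also called, at −0.70 (SE 0.126, adjusted p = 0.00262, edgeR), against −0.55 (SE 0.247, adjusted p = 0.303, edgeR) without it. UCP1 KO replicate 2, at 12.9 CPM the lowest of its group for Dusp4, was the UCP1 KO library with the high lymph node score.

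Hepatocyte markers in iWAT summed to 318 CPM in FGF21 KO replicate 4 and 17.1 to 114 CPM in the other libraries, with none of the 5 tested called. Skeletal muscle markers were uneven among the iWAT libraries as well. The 10 markers summed to 45 to 26600 CPM in UCP1 KO, 28.1 to 12100 CPM in WT, 35.2 to 5320 CPM in FGF21 KO and 43.0 to 976 CPM in dKO, with 0 of 10 called in any of the 3 comparisons and none at 0. The UCP1 KO library with the highest sum was replicate 1, at 35.0 CPM for Dusp4. With the skeletal muscle score added as covariate UCP1 KO minus WT was 1.30 for Dusp4 (adjusted p = 0.019, edgeR), and without UCP1 KO replicate 1 it was 1.31 (adjusted p = 0.0248, edgeR).

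Fgf21 in iWAT was at 0.861, 0.594, 6.50, 9.64 and 14.0 CPM in the same 5 UCP1 KO libraries, against 0.0484 to 0.318 CPM in WT (5.40, SE 0.904, adjusted p = 0.00688, edgeR). Replicate 2 was lowest and replicate 5 highest for both Fgf21 and Dusp4, while replicate 1 joined a low Fgf21 level to a Dusp4 level of 35.0 CPM. Brown adipocyte markers moved in iWAT too. Their score was 5.08 to 7.74 in UCP1 KO, 2.59 to 3.91 in WT, 1.32 to 3.68 in FGF21 KO and 2.24 to 4.41 in dKO, and 3 of 5 were called higher in UCP1 KO minus WT. The 5 markers summed to 340 to 1940 CPM in UCP1 KO, 56.0 to 139 CPM in WT, 15.2 to 117 CPM in FGF21 KO and 34.8 to 185 CPM in dKO, none at 0. Their part in the Dusp4 level was not tested. Of the other lists, Fgf21 was the one gene called in iWAT for UCP1 KO minus WT.

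In liver and muscle no ERK feedback gene was called in any comparison. Etv4, left out of the liver fit, had 0 to 14 counts per library there. In liver 0 of 9 genes were called by edgeR for UCP1 KO minus WT, dKO minus FGF21 KO and FGF21 KO minus WT, beside 0.0694%, 0.00694% and 0.229% of all genes; 1, 1 and 0 of the 9 had an unadjusted p under 0.05, beside 10.2%, 6.75% and 7.54% of all genes. In muscle 0 of 10 were called, beside 0.0265%, 0.0595% and 0.00662% of all genes, with 0, 1 and 1 at an unadjusted p under 0.05, beside 9.81%, 7.96% and 12.9%. DESeq2 called none of them in either tissue, beside 0.777%, 0.0902% and 0.382% of all genes in liver and 0.172%, 0.112% and 1.27% in muscle.

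Dusp4 in liver was at 0.997 to 2.71 CPM in UCP1 KO and 2.35 to 2.83 CPM in WT, and in muscle at 1.26 to 2.71 CPM and 1.01 to 2.38 CPM. The differences were −0.38 (SE 0.243, adjusted p = 0.617, edgeR) and 0.18 (SE 0.221, adjusted p = 0.829, edgeR), both within the spread of the libraries. The largest difference in liver was that of Dusp5, 1.34 (SE 0.486, adjusted p = 0.301, edgeR), on 2 to 8 counts per library in WT and 6 to 14 in UCP1 KO. Liver is the tissue in which the deleted Fgf21 was called lower in FGF21 KO minus WT, with 0 to 2 counts per library against 51 to 107, and the 9 genes tested there had a median of 0.03 in that comparison. In muscle the differences between UCP1 KO and WT ran from −0.11 for Dusp6 to 0.25 for Dusp5.

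Levels in the 4 WT tissues were not used to choose the genes and were compared on log2 CPM scaled over all 80 libraries, with a two-sided exact permutation test of neighbours in the order of the tissue means. With 5 libraries against 5 the smallest p is 0.00794, or 0.017 after adjustment over the 30 tests, and 15 of 30 neighbour pairs had an adjusted p under 0.05. Dusp4 was the gene whose 4 tissues all differed. It was at 16.8 to 36.8 CPM in BAT, 7.09 to 9.37 CPM in iWAT, 3.11 to 3.62 CPM in liver and 1.24 to 2.96 CPM in muscle, with steps of 1.85, 1.30 and 0.83 on the log2 scale (exact permutation, each adjusted p = 0.017).

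**Figure D5:**
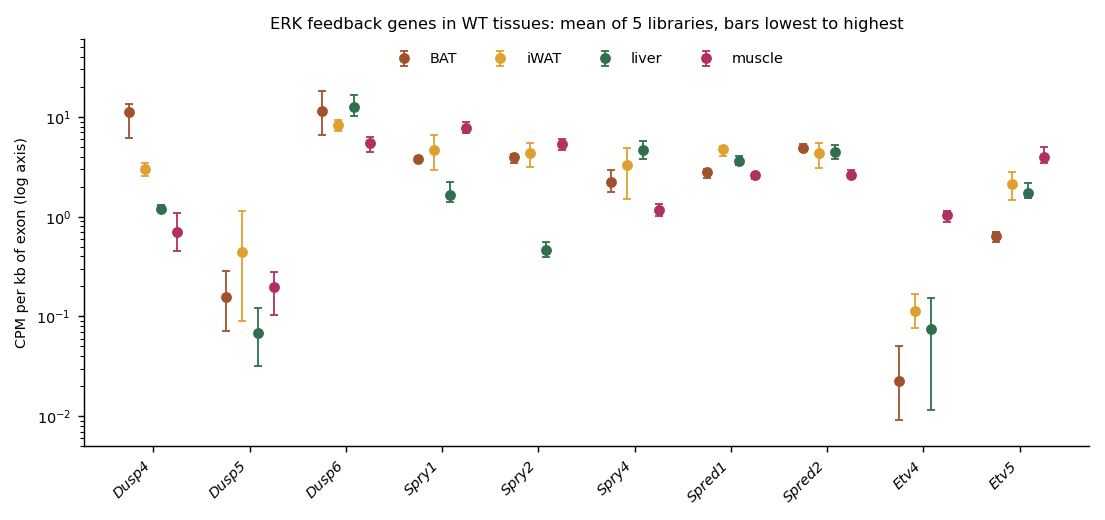
Mean level of the 10 genes in WT BAT, iWAT, liver and muscle, as CPM per kb of exon on a log axis, with bars from the lowest to the highest of 5 libraries. Dusp4 falls from 11.2 in BAT to 0.696 in muscle, and Etv5 is lowest in BAT at 0.643 and highest in muscle at 3.97.

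The ETS factors had another order. Etv5 was highest in muscle, at 14.1 to 20.4 CPM, and lowest in BAT, at 2.29 to 2.91 CPM, and both ends differed from their neighbours (exact permutation, adjusted p = 0.017), while iWAT and liver did not. Etv4 was highest in muscle as well, at 2.76 to 3.53 CPM against 0.236 to 0.517 CPM in iWAT (exact permutation, adjusted p = 0.017); liver and BAT, at 0.0359 to 0.472 CPM and 0.0283 to 0.158 CPM, were not separated from their neighbours. BAT, where both ETS factors were higher in UCP1 KO than in WT, was thus the tissue with their lowest WT mean, though for Etv4 it did not differ from liver past the threshold.

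Among the inhibitors, Spry1 was highest in muscle (19.9 to 25.9 CPM) and lowest in liver (4.05 to 6.42 CPM), and both ends differed from their neighbours (exact permutation, adjusted p = 0.017). Spry2 was lowest in liver at 0.827 to 1.16 CPM, 3.04 log2 units below BAT (exact permutation, adjusted p = 0.017), and its other 3 tissues overlapped as neighbours. Spry4 and Spred2 were lowest in muscle, at 4.81 to 6.32 CPM and 11.3 to 13.6 CPM, with no difference past the threshold among their other 3 tissues. Spred1 was highest in iWAT, at 27.9 to 34.4 CPM, above liver at 22.2 to 27.4 CPM, which was above BAT at 16.5 to 20.7 CPM (exact permutation, adjusted p = 0.017 for both). Dusp6 was lowest in muscle, at 13.9 to 19.6 CPM, and Dusp5 in liver, at 0.0787 to 0.300 CPM (exact permutation, adjusted p = 0.017 and 0.0476).

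Per kb of exon, in CPM per kb, Dusp6 at 11.6 ± 4.87 and Dusp4 at 11.2 ± 2.96 (SD, n = 5) had the highest levels of the 10 in WT BAT, followed by Spred2 at 4.93 ± 0.278. Dusp5 at 0.158 ± 0.0798 and Etv4 at 0.0223 ± 0.0168 had the lowest. In muscle Spry1 at 7.71 ± 0.828 had the highest mean, followed by Dusp6 at 5.54 ± 0.765 and Spry2 at 5.42 ± 0.623, which lay within each other's spread, and Dusp4 was at 0.696 ± 0.245. Over the 16 tissue and genotype means of log2 CPM, the other members most like Dusp4 were Spred2 (Pearson r = 0.71) and Dusp6 (0.67), and the least like it were Etv5 (−0.69) and Etv4 (−0.58). Of all other named genes, those most like Dusp4 over the same 16 means were Ift81 (0.97), Apmap (0.95), Msi1, Eml2 and Olfr1396 (each 0.95). These values are descriptive, since the 16 means share tissues.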

How the data were processed

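Poly(A) RNA of the 4 tissues was sequenced from strand-marked libraries. Reads were aligned by the authors to mm10 (GRCm38) with STAR and counted on UCSC known genes with HTSeq-count, and the deposited values are raw counts per gene symbol, 1 file per library. How strand was set in the counting is not given in the sources used here. The 1 row that names no gene was left out (at most 3.42e-05% of the counts). The members and gene lists were chosen with earlier results of these data known.

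Per tissue, a gene was kept if its highest count exceeded 15, its sum exceeded 75 and at most 10 libraries were at 0. The 20 libraries of a tissue were fitted together with edgeR 4.0.16 (quasi-likelihood F test, TMM factors, 1 mean per genotype, R 4.3.3), and p-values were adjusted by Benjamini-Hochberg over all genes of the tissue, with a threshold of 0.01. DESeq2, the tool of the paper's methods, served as an alternative (1.42.0). CPM are counts scaled to library size with TMM factors of the tissue, or of all 80 libraries where tissues are compared. Log2 CPM used a prior count of 2. The likeness to Dusp4 passed over uncharacterised gene names. Genes outside the 10 were named by rule, namely both deleted genes, Klb, Fgfr1 and up to 3 rises and 3 falls per list among called genes. The code was tested on simulated data. No 2 libraries of a tissue had identical counts. Labels do not say whether libraries of a group were processed apart, so p-values measure the spread between these libraries.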

Additional observations from a re-analysis of the deposited data

Results flagged for a closer look

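Within the 160 groups of 5 libraries formed by the 10 genes, 7 held a library whose gap to its nearest neighbour, on log2 CPM, exceeded 0.71 of the range of the group, where chance gives about 1 in 20. In BAT, Dusp4 was at 17.5 CPM in WT replicate 1 against 31.4 to 38.3 CPM in the other 4, Etv4 at 0.0805 CPM in UCP1 KO replicate 1 against 0.409 to 0.676 CPM, and Spry1 at 12.7 CPM in FGF21 KO replicate 5 against 9.04 to 9.36 CPM. In iWAT, Dusp5 was at 5.19 CPM in UCP1 KO replicate 2 against 0.849 to 1.23 CPM, and this was the UCP1 KO library with the high lymph node score. Dusp5 was at 0.292 CPM in FGF21 KO replicate 2 against 3.07 to 6.79 CPM and Spry1 at 19.8 CPM against 11.0 to 12.8 CPM, and this was the FGF21 KO library with the low lymph node score. In muscle, Spry4 was at 5.48 CPM in UCP1 KO replicate 1 against 4.14 to 4.42 CPM.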

How the results depend on the processing

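Of the 12 counts of ERK feedback genes called, 9 were 0 under every alternative run. In iWAT the fit of low lymph node scores left 1 FGF21 KO library, assumed to vary like the other groups, so its 0 calls in the comparisons with FGF21 KO say nothing about their stability. In BAT, the 6 calls of UCP1 KO minus WT became 1 with the macrophage score as a covariate, 3 without the 2 UCP1 KO libraries low in adipocyte markers and 5 to 7 when each library was left out in turn, where all genes called went from 3965 to 598, 2662 and 3089 to 4685. The 0 calls of dKO minus FGF21 KO became 2 under DESeq2, at an adjusted p under 0.05 or without the 2 UCP1 KO libraries low in adipocyte markers, 1 with only the 2 genotypes compared, with the skeletal muscle score added as covariate or without the 5 libraries with a skeletal muscle score above 6, and 0 to 1 when each library was left out; Dusp5 was called without dKO replicate 3 or UCP1 KO replicate 2, 3 or 5, and Spred1 without UCP1 KO replicate 4. All genes called there were 2129, and in the same order 3065, 4405, 2510, 1941, 1233, 1999 and 1380 to 2596. In iWAT, the 0 calls of UCP1 KO minus WT became 1 at an adjusted p under 0.05, under DESeq2 or among low lymph node scores, 2 with the lymph node score added as covariate and 0 to 1 when each library was left out. All genes called there were 106, and in the same order 450, 597, 661, 816 and 16 to 360. The causes were not tested.

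Spry2 in UCP1 KO minus WT in BAT went from 0.41 to −0.03 with the macrophage score as a covariate. Small differences turned sign for dKO minus FGF21 KO in BAT, Spry4 to 0.23 with the skeletal muscle score added as covariate, and to 0.004 without the libraries above 6. When each library was left out in turn, that comparison ran from −0.313 to 0.054 for Dusp4 and from −0.126 to 0.024 for Spry4, both above 0 without dKO replicate 3 or FGF21 KO replicate 3, and from −0.024 to 0.131 for Spred2, below 0 without FGF21 KO replicate 5. None of these was called. The 307 values of UCP1 KO minus dKO under alternatives moved by less than 1 SD of log2 CPM, taken from the more variable of the genotypes compared. RLE factors left 15 of 30 tissue pairs past the threshold. Leaving out a WT library kept the order of tissue means for 9 to 10 of the 10 genes. Because 4 libraries against 4 cannot give a p under 0.0286, the tests repeated without a library are not reported. No paired analysis was possible because the labels give no replicate numbers (those used here only name libraries) and link no libraries of a mouse. Etv4 and Dusp5 have few counts in BAT and liver, so small differences in them were not detectable at this depth.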
